A study of Mus musculus with 10 samples.

Results

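The pyruvate dehydrogenase complex of mitochondria converts pyruvate to acetyl-CoA, and so joins glycolysis to the citric acid cycle. Its E1 enzyme is built from the products of Pdha1 and Pdhb, its E2 from Dlat and its E3 from Dld, and Pdhx encodes the E3-binding protein that anchors E3 to the core. In muscle, phosphorylation of E1 by the kinases of Pdk1, Pdk2 and Pdk4 turns the complex off. The phosphatase whose catalytic subunit Pdp1 encodes turns it on again, and Pdpr encodes a regulatory subunit of that phosphatase. In general, Pdk4 is known for its induction in fasting and fat feeding, when muscle spares glucose, Pdk1 for its induction in hypoxia, and Pdk2 as the most widely expressed of the kinases.

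These 10 genes, of 21160 in the count table, were measured in gastrocnemius (GAS) from wild-type male C57BL/6J mice with diet-induced obesity (DIO). They were selected from the known parts of the complex with the fold changes of this same comparison in view, so the differences between groups given for them are a description and carry no test. All mice started a high-fat diet at 9 weeks of age. After 9 weeks on it, and while still fed it, they were injected subcutaneously once a week for 14 weeks. They received either the anti-miR-22 antisense oligonucleotide RES-010 at 10 mg/kg (ASO, n = 5) or the same volume of saline (CTRL, n = 5). The age given for all mice at the end is 30 weeks. That is less than these spans add up to, and the difference could not be resolved. The ASO is an unconjugated LNA mixmer that binds miR-22. The controls received no oligonucleotide, so an effect of any oligonucleotide cannot be told apart from one through miR-22. In the authors' body weights at the start of treatment, most control mice were lighter than every ASO mouse. The part of starting weight in the values below was not tested. The question addressed was how obese muscle responds to miR-22 inhibition, and each library came from bulk muscle, in which fewer cells of a type and less RNA per cell cannot be told apart.

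The mature miR-22-3p, which the ASO targets, is shown with its seed (bases 2 to 8) in capitals, as given by RefSeq on GRCm38.p6 (chr11:75463772-75463793, plus strand). The 2 stretches of 3′UTR below it are those of the 10 genes that hold the 7 letters complementary to that seed, GGCAGCT, here in capitals, on the transcript strand.
mmu-miR-22-3p: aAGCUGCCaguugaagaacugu
Pdhx 3′UTR, chr2:102851150-102851179, minus strand, GRCm39: ctgcttctttctgttGGCAGCTctggcaag
Pdp1 3′UTR, chr4:11960355-11960384, minus strand, GRCm39: ggtacccacacttgaGGCAGCTtgtttcct
In neither is the match followed by an A. The longest annotated 3′UTRs of the 10 genes have between 1365 bp (Pdhb) and 4768 bp (Pdpr), and the letters are absent from those of the other 8, Pdpr and Pdk2 included. Among all 20930 genes of the table with an annotated 3′UTR, 16.7% hold the heptamer in the longest one. The search covers these letters only, and a match is not evidence of binding.

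The table counts read pairs on the last 500 bp of annotated 3′UTRs, and totals lay between 1606909 and 2116720 counts per library in CTRL and between 2239186 and 2632560 with the ASO. The libraries also differed in where along a gene the counts fell. For 1592 genes with counted segments at least 1000 bp apart, the log2 ratio of distal to upstream counts was taken in each library. The median over these genes is called the distal index here. It lay between −0.45 and 0.49 in CTRL (0 in CTRL replicate 3) and between 1.18 and 1.69 with the ASO, without overlap. The summed CPM of 6 skeletal muscle markers (Acta1, Ckm, Ttn, Tnni2 and, both listed at 0 in every library, Tnnt3 and Mylpf) lay between 38560 and 75040 in CTRL and between 80420 and 117300 with the ASO. No count of miR-22 itself was used here, so the labels could not be checked against the target of the ASO.

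All 10 genes passed the filter on low counts. Their levels in CTRL, as CPM (counts scaled to library size, here after TMM normalization) per kb of counted segment, spanned 71.9-fold from the highest to the lowest. Pdha1 was the highest at 3192 ± 868 CPM per kb (SD, n = 5), followed by Pdk4 at 2819 ± 1566, Pdk2 at 2319 ± 428 and Pdhb at 1638 ± 329, and among these 4 each overlapped the next across libraries. Pdha1 and Pdhb themselves did not overlap, and all 5 libraries of Pdhb lay above all 5 of the next gene, Dld. Dld, whose E3 subunit also serves the other 2-oxoacid dehydrogenase complexes, had 527 ± 146 CPM per kb, and Pdpr had 291 ± 144. Dlat, Pdk1 and Pdhx were lower, at 194 ± 66.6, 181 ± 48.3 and 103 ± 24.3 CPM per kb, and each of the genes from Dld to Pdk1 overlapped the next one down. The level of Pdhx is spread over 2 segments of which 1 holds 99.8% of its counts, and on that segment alone it was 205 CPM per kb and ranked seventh. Pdp1, the only member that encodes a catalytic phosphatase subunit, was the lowest at 44.4 ± 18.4 CPM per kb and did not overlap its neighbour. This level comes from 1 of its 5 segments. The others share coordinates, and no segment with duplicate coordinates holds a count, so any reads there are missing from it. Of the isoforms left out of the 10 genes, the kinase gene Pdk3 had between 2 and 10 counts per library, the phosphatase gene Pdp2 had 10.8 ± 8.70 CPM in CTRL, and the testis E1 gene Pdha2 had at most 5 counts in any library.

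**Figure D1:**
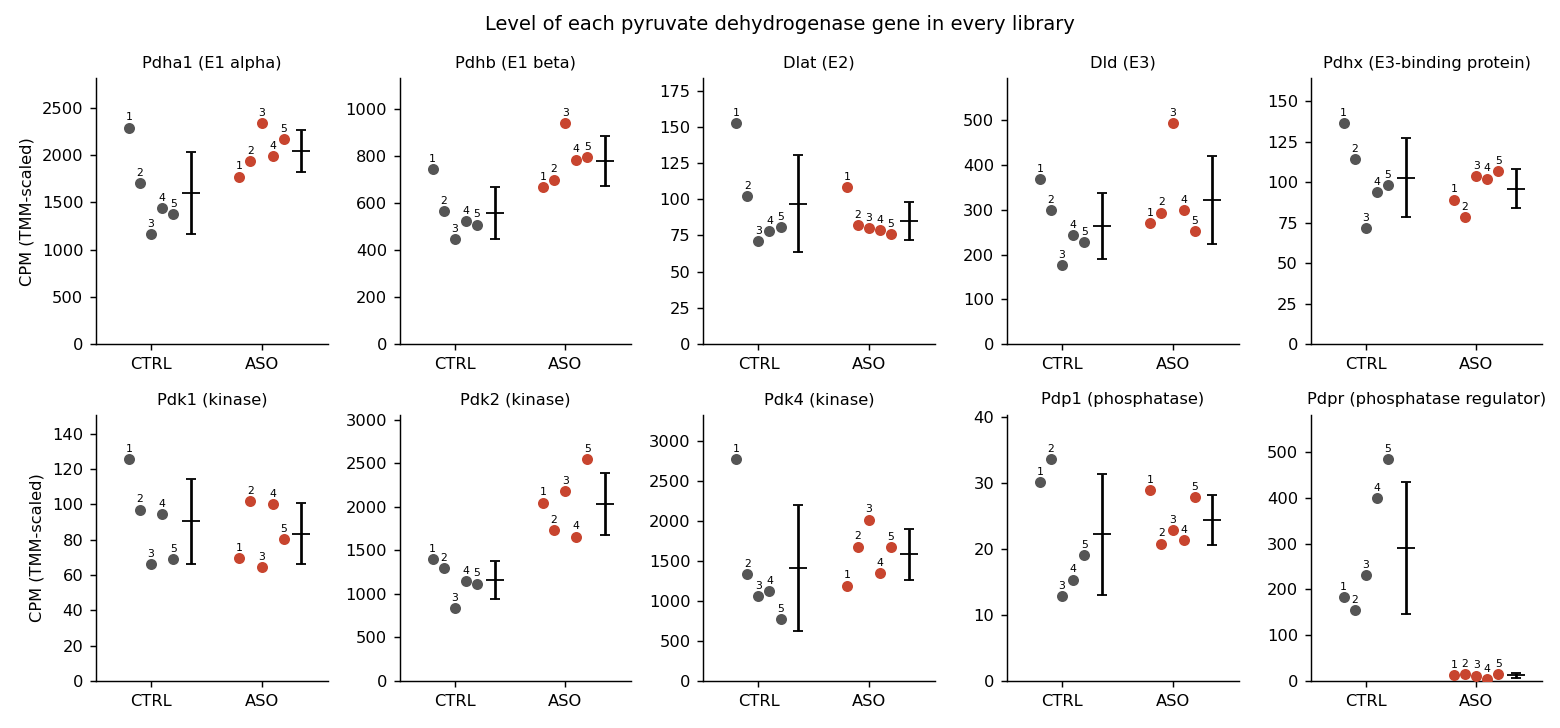
Level of each of the 10 genes in every library, in TMM-scaled CPM (y axes start at 0), with CTRL in grey and the ASO in red, replicate numbers above the points, and the mean ± SD of 5 libraries to the right of each group. The ASO libraries of Pdk2 all lie above CTRL, those of Pdpr all lie below, and the groups of the other 8 genes overlap.

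Between the groups, 2 of the 10 genes (Pdk2 and Pdhb) were higher and 1 (Pdpr) was lower with the ASO at an adjusted p under 0.05 in edgeR's quasi-likelihood test. The same threshold was passed upward by 11.7% and downward by 17.5% of the 7819 genes tested, and because the genes were picked with this comparison known, nothing is read from their count. All 5 ASO libraries lay above all 5 CTRL libraries for 1 of the 10 genes (Pdk2; 7.98% of all genes tested) and below them for 1 (Pdpr; 13.4%). The median log2 fold change of the 10 genes was 0.14, beside −0.03 over all genes tested.

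The E1 subunits had higher means with the ASO. Pdhb, the E1 beta subunit, had 743, 564, 448, 523 and 508 CPM in CTRL replicates 1 to 5 and 669, 699, 941, 784 and 794 CPM in ASO replicates 1 to 5. CTRL replicate 1 lay above ASO replicates 1 and 2, and the other CTRL libraries lay below every ASO library. The log2 fold change of Pdhb was 0.48 (SE 0.16), from 557 ± 112 to 777 ± 106 CPM. Pdha1, the E1 alpha subunit that carries the phosphorylation sites, had 2292, 1701, 1163, 1442 and 1380 CPM in CTRL and 1772, 1933, 2343, 1992 and 2166 CPM with the ASO. Again only CTRL replicate 1 reached into the ASO range. Its log2 fold change was 0.36 (SE 0.18), from 1596 ± 434 to 2041 ± 220 CPM, and it was not past the threshold. It was 0.18 under scaling by total counts and 0.13 on the most distal counted segments alone. Pdha1 and Pdhb each have 1 counted segment. On the most distal segments their own counts are therefore unchanged, and only the scaling and fit differ. Of the 20 alternatives other than those added later, 1, without CTRL replicate 1, gave a call for Pdha1 (0.52). The call of Pdhb was lost under scaling by total counts (0.30), without the filter on low counts (0.50), on the most distal counted segments alone (0.25), with the replicate number as a block (0.49) and when any of CTRL replicates 2 to 5 or ASO replicates 3 or 5 was left out (0.41 to 0.49), which is 10 of those 20. With the distal index as a covariate, a fit added after seeing the data, Pdha1 was at −0.50 (SE 0.39) and Pdhb at −0.24 (SE 0.35), neither called.

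Both E1 values share a limit of the counting. The Pdhb segment (chr14:14303438-14303777, plus strand, GRCm39, 340 bp, past the coding sequence) has 338 bp within exons of Pxk on the minus strand, and 178 bp of the Pdha1 segment (chrX:158905205-158905704, minus strand, past the coding sequence) lie within exons of Map3k15 on the plus strand. No strand option is named for the counting, so reads of these neighbours cannot be told apart from reads of the E1 genes. On their own segments Pxk was listed at 0 in every library, and Map3k15 had 2.83 ± 1.27 CPM in CTRL and 4.86 ± 0.82 CPM with the ASO.

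The core and E3 components were not past the threshold. Dlat, the acetyltransferase E2, ranged from 71.1 to 153 CPM in CTRL and from 75.9 to 109 CPM with the ASO, a log2 fold change of −0.19 (SE 0.21). Pdhx, the E3-binding protein, ranged from 71.6 to 137 CPM in CTRL and from 78.6 to 107 CPM with the ASO (−0.10, SE 0.17). Dld, the E3 dihydrolipoamide dehydrogenase, ranged from 177 to 368 CPM in CTRL and from 253 to 495 CPM with the ASO (0.29, SE 0.23). The groups overlapped for all 3 genes. The signs of Dlat and Pdhx turned when CTRL replicate 1 was left out (0.04 and 0.03), and that of Dld was positive under every scaling and −0.85 (SE 0.46) with the distal index as a covariate.

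Ratios between genes within a library do not depend on how libraries are scaled. The difference between the groups in the distal index need not cancel in them. Per kb, the counts of Pdha1 were 1.93 ± 0.14 times those of Pdhb in CTRL and 1.79 ± 0.080 times with the ASO, and the range over all 10 libraries was 1.69 to 2.10. The E1 messages thus stood in a narrow range of proportions in these animals. Against Dlat, Pdha1 stood at 15, 16.7, 16.4, 18.5 and 17.1 in CTRL and at 16.3, 23.5, 29.3, 25.4 and 28.5 with the ASO. ASO replicate 1 lay inside the CTRL range, and the other 4 ASO libraries lay above it. The ratio of Pdhx to Dlat, which pairs the 2 core proteins, overlapped between the groups, from 0.45 to 0.61 in CTRL and from 0.41 to 0.705 with the ASO. These values divide by both Pdhx segments, and on the segment with nearly all its counts the ratio was 0.892 to 1.21 in CTRL and 0.822 to 1.40 with the ASO.

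**Figure D2:**
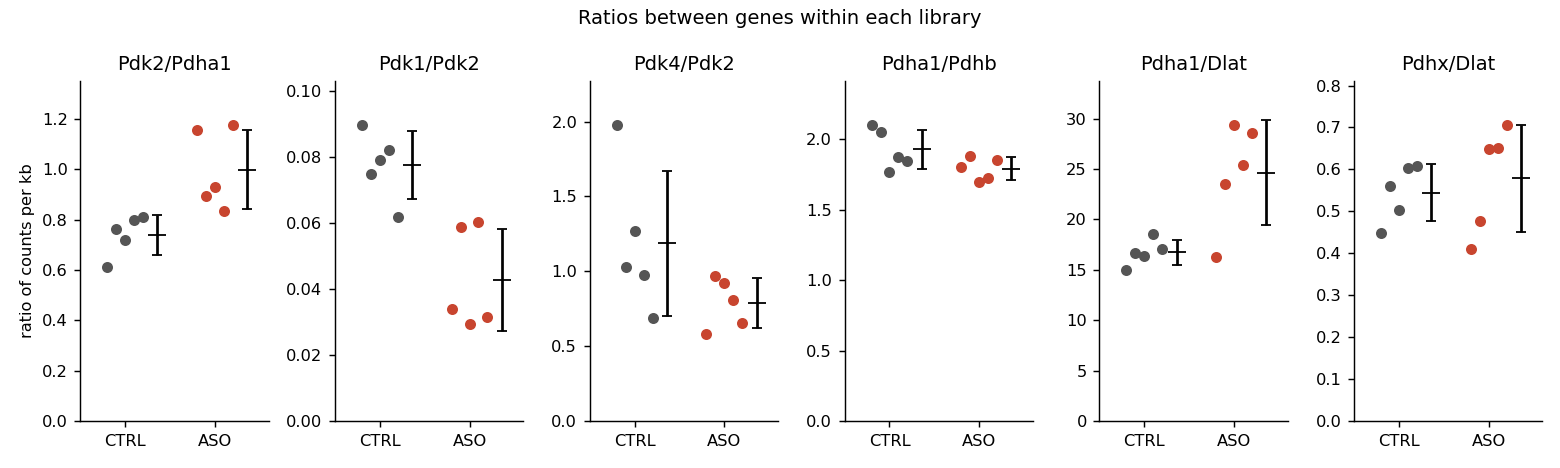
Ratios of counts per kb between pairs of the genes within each library (y axes start at 0), with CTRL in grey, the ASO in red and the mean ± SD of 5 libraries to the right of each group. The ratio of Pdk2 to Pdha1 is higher in all 5 ASO libraries and that of Pdk1 to Pdk2 is lower, and the ratios of Pdk4 to Pdk2, Pdha1 to Pdhb, Pdha1 to Dlat and Pdhx to Dlat overlap between the groups.

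Of the 3 kinases, Pdk2 was higher with the ASO and the other two were not past the threshold. Pdk2 had 1400, 1296, 835, 1149 and 1118 CPM in CTRL replicates 1 to 5 and 2049, 1731, 2179, 1660 and 2546 CPM in ASO replicates 1 to 5. Every ASO library lay above every CTRL library. The mean rose from 1160 ± 214 to 2033 ± 359 CPM, which is 1.75-fold, with a log2 fold change of 0.81 (SE 0.18). It was past the threshold in the reported fit and in all 20 alternatives other than those added later. The values lay between 0.58 on the most distal counted segments and 0.90. Pdk2 has 1 counted segment, so its own counts are unchanged in the most distal setting and only the scaling and fit differ. With the distal index as a covariate, the log2 fold change was 0.33 (SE 0.43) and no longer past it. The Pdk2 segment (chr11:94917084-94917583, minus strand, GRCm39) lies in the 3′UTR 2155 bp before the annotated end of the gene. The ratio of Pdk2 to Pdha1, the kinase to its substrate, was 0.61, 0.76, 0.72, 0.80 and 0.81 in CTRL and 1.16, 0.90, 0.93, 0.83 and 1.18 with the ASO, again without overlap. Skeletal muscle markers, given above, were also higher in every ASO library, and their part in the Pdk2 difference was not tested.

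The spread of Pdk4 within CTRL came mostly from 1 library. It had 2764, 1331, 1059, 1122 and 771 CPM in CTRL and 1190, 1675, 2012, 1343 and 1668 CPM with the ASO. CTRL replicate 1 was the highest of all 10 libraries, and of the other 4 controls only CTRL replicate 2 reached into the ASO range. The coefficient of variation was 55.6% in CTRL, 21.6% in CTRL without replicate 1 and 20.3% with the ASO. Without that replicate, Pdpr (47.5%) and Pdp1 (45.9%) varied more in CTRL. The log2 fold change was 0.16 (SE 0.30), with a 95% interval of −0.43 to 0.75. It was 0.56 without CTRL replicate 1, which did not pass the threshold, −0.01 under scaling by total counts and −1.59 (SE 0.55, not called) with the distal index as a covariate. Pdk1 ranged from 66.2 to 125 CPM in CTRL and from 64.3 to 102 CPM with the ASO, a log2 fold change of −0.12 (SE 0.20) that turned to 0.03 without CTRL replicate 1. Relative to Pdk2, Pdk1 was lower in all 5 ASO libraries than in any control, with a ratio per kb of 0.078 ± 0.010 in CTRL and 0.043 ± 0.015 with the ASO. This ratio carries the Pdk2 difference, as Pdk1 itself was at −0.12. The Pdk1 segment lies at the annotated gene end and that of Pdk2 2155 bp before it, and the part of this in the ratio was not tested. Relative to Pdk2, Pdk4 stood between 0.69 and 1.97 in CTRL and between 0.58 and 0.97 with the ASO, with overlap.

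The spread within CTRL had a common part. CTRL replicate 1 was the highest of the 5 controls for 8 of the 10 genes, Pdp1 and Pdpr being the exceptions, and CTRL replicate 3 was the lowest for 8, Pdk4 and Pdpr being the exceptions. In the markers, CTRL replicate 1 had the highest sum of 7 slow fiber genes in CTRL (2001 CPM, against 68.5 to 761 CPM in the other 4). CTRL replicate 3 had the highest sum of 7 adipocyte genes of all libraries (13740 CPM, against 721 to 3758 CPM in the other 9) and the lowest of skeletal muscle genes. The part of these markers in the levels of the 10 genes was not tested.

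The genes whose deviations from the group means followed those of Pdk4 most closely, over the 10 libraries and among 7744 genes with at least 10 counts on average, were Slc9a2 (Pearson r = 0.95), Vwa8 (0.93) and Prdx3 (0.91), a mitochondrial peroxidase. Each of the 3 had its highest CTRL value in CTRL replicate 1, for instance 736 CPM for Prdx3 against 474 to 567 CPM in the other controls. Their own log2 fold changes were 0.38, 0.53 and 0.15, none past the threshold. These libraries share the depth and index differences given above, and the likeness is a description.

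**Figure D3:**
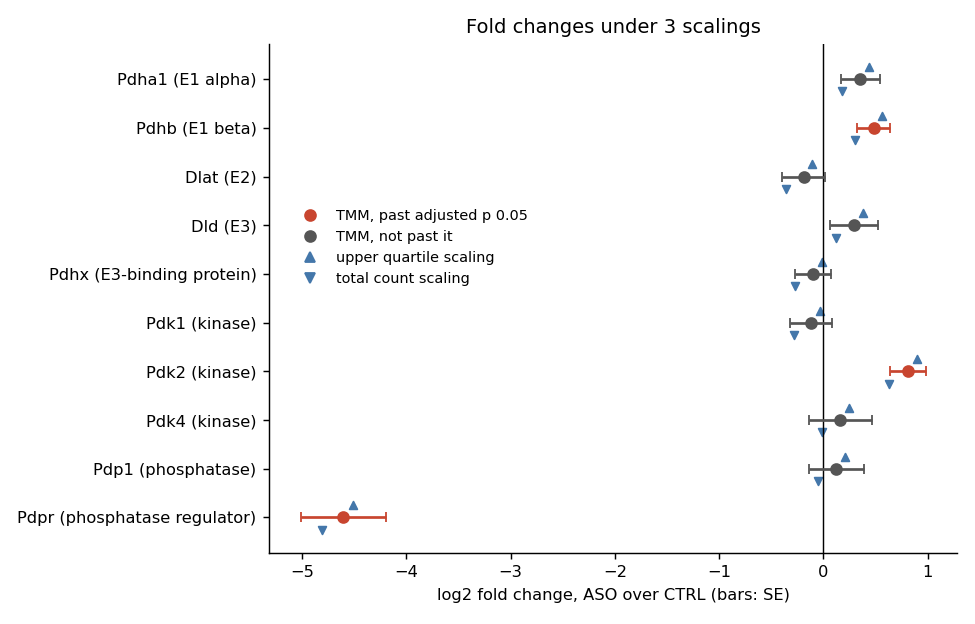
Log2 fold changes of the 10 genes, ASO over CTRL (x axis), ordered by role, with points and bars for the estimate ± SE under TMM scaling (red where past an adjusted p of 0.05, grey where not) and triangles for upper quartile and total count scaling. Pdpr at −4.61 stands far to the left, Pdk2 at 0.81 is the highest, and total counts place Pdk4 and Pdp1 just below 0.

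The phosphatase side held the message with the lowest counted level and the most changed one. Pdp1 had between 26 and 72 counts per library in CTRL and between 49 and 60 with the ASO. In CPM that was 22.2 ± 9.18 and 24.3 ± 3.79, a log2 fold change of 0.12 (SE 0.26) whose sign turned under total counts (−0.05) and without CTRL replicate 3 (−0.03), and was −0.91 (SE 0.57, not called) with the distal index as a covariate. The other 4 annotated Pdp1 segments share 1 set of coordinates and hold 0 counts, as do all 11523 segments with duplicate coordinates. These zeros do not show an absence of reads. Only the segment at chr4:11958184-11958683 (GRCm39, minus strand) speaks for the gene.

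Pdpr, the regulatory subunit of the phosphatase, had 183, 155, 232, 400 and 484 CPM in CTRL replicates 1 to 5 and 13.5, 15.3, 11.4, 4.17 and 15.1 CPM in ASO replicates 1 to 5. Every ASO library lay below every control. The mean fell from 291 ± 144 to 11.9 ± 4.59 CPM, a log2 fold change of −4.61 (SE 0.41), or 24.4-fold lower. In counts this was 333 to 862 per CTRL library against 10 to 36 per ASO library, although every ASO library was deeper. Over the same 20 alternatives the log2 fold change lay between −4.99 and −4.35, and it was past the threshold in each.

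The decrease was present on both counted segments of Pdpr, which lie 1427 bp apart on the plus strand of chromosome 8 (GRCm39). The upstream one (chr8:111861280-111861779) comes from a transcript annotated for nonsense-mediated decay and ends 4633 bp before the annotated end of the gene. It had 160, 138, 212, 328 and 411 counts in CTRL and 9, 15, 14, 5 and 25 counts with the ASO. The downstream one (chr8:111863207-111863706) is the end of the protein-coding transcript in the table and lies 2706 bp before the end of the gene. It had 227, 195, 257, 350 and 451 counts in CTRL and 19, 21, 13, 5 and 7 counts with the ASO. The groups were apart on each segment, with log2 fold changes of −4.41 (SE 0.47) upstream and −4.72 (SE 0.41) downstream in a fit over all segments that was added after seeing the data. The downstream segment took 54.2% of the Pdpr counts pooled over CTRL and 48.9% of those pooled over the ASO libraries. In ASO replicate 5 it took 21.9% (95% Wilson interval 11% to 38.8%, counting error only), the lowest share of the 10 libraries, and in ASO replicate 1 it took 67.9% (49.3% to 82.1%), the highest. Without ASO replicate 5 the pooled ASO share was 57.4%. Both segments lie in an intron of the antisense transcript 9430091E24Rik, with no base in its exons.

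**Figure D4:**
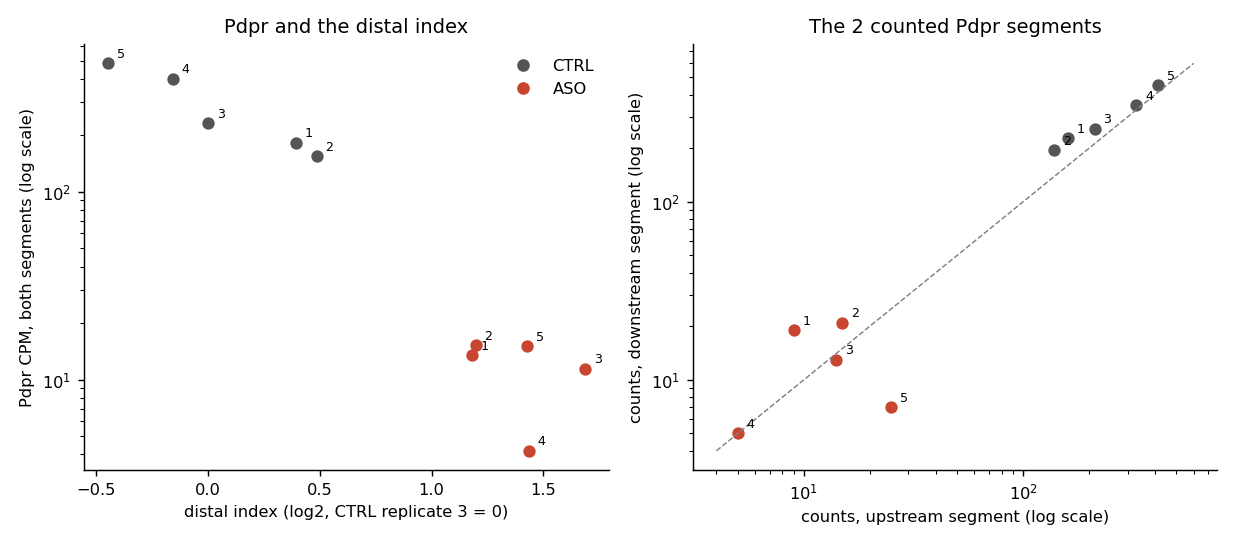
Left, Pdpr level in CPM on both segments (log axis) against the distal index of each library (median log2 ratio, which is 0 in CTRL replicate 3). Right, counts on the downstream against the upstream Pdpr segment (both axes log, dashed line at equality). CTRL libraries (grey) fall from 484 to 155 CPM as the index goes from −0.45 to 0.49, and ASO libraries (red) sit between 4.17 and 15.3 CPM at an index of 1.18 to 1.69.

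Within CTRL, Pdpr ran opposite to the distal index. CTRL replicates 5, 4, 3, 1 and 2, in falling order of Pdpr, had indices of −0.45, −0.16, 0.00, 0.39 and 0.49. The 5 ASO libraries, with the higher indices, followed this order only in part. In rising order of index, ASO replicates 1, 2, 5, 4 and 3 had 13.5, 15.3, 15.1, 4.17 and 11.4 CPM. The indices of ASO replicates 5 and 4 were nearly equal, and ASO replicate 3 had the highest (1.69). ASO replicates 4 and 3, with the highest indices of the group, had its lowest Pdpr values. Index and treatment do not overlap and cannot be told apart by these samples alone. In the fit with the index as a covariate, Pdpr was at −2.31 (SE 0.62) and not past the threshold, and that fit called 0 genes in either direction, with 170 higher and 271 lower at an unadjusted p under 0.05. Among all genes tested, those whose last counted segment ended at least 2000 bp before the annotated gene end, as for Pdpr, Pdk2 and Dlat, numbered 1459. Of these, 10.7% were higher and 23.9% lower, and the median log2 fold change was −0.10. Of the 5010 genes with a segment within 500 bp of the end, as for Pdk1, Pdk4 and Pdp1, 12.5% were higher and 14.5% lower, and the median was 0.0034. The part of segment position in the Pdpr and Pdk2 values was not tested.

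The genes most like Pdpr in their deviations from the group means were the zinc transporter gene Slc39a13 (Pearson r = 0.96 over 10 libraries), Fsd2 (0.95) and the mitochondrial glutaredoxin gene Glrx2 (0.95). For all 3, as for Pdpr, CTRL replicate 5 was the highest control and CTRL replicates 1 and 2 were the lowest, and all 3 were lower with the ASO, with log2 fold changes of −0.84, −2.54 and −0.56. Fsd2 had 120 to 242 CPM in CTRL and 16.3 to 37.7 CPM with the ASO. In the distal index, CTRL replicate 5 was the lowest control and CTRL replicates 1 and 2 were the highest. The likeness is a description, and the part of the index in it was not tested.

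Around the complex, 7 lists with 105 genes gave 75 tested genes, of which 7 were higher and 9 lower with the ASO. These are 9.33% and 12% of the genes tested, below the 11.7% and 17.5% over all genes, and the median log2 fold change was −0.05, beside −0.03 over all genes tested. Of the 105 genes, 10 are listed at 0 in every library, among them the fatty acid oxidation genes Hadha and Ech1, so a 0 in this table does not mean that a gene is silent. The counts per list below are small and stand beside the same shares over all genes, 11.7% higher and 17.5% lower. The p-values that follow come from edgeR (quasi-likelihood) and are Benjamini-Hochberg adjusted over all 7819 genes.

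**Figure D5:**
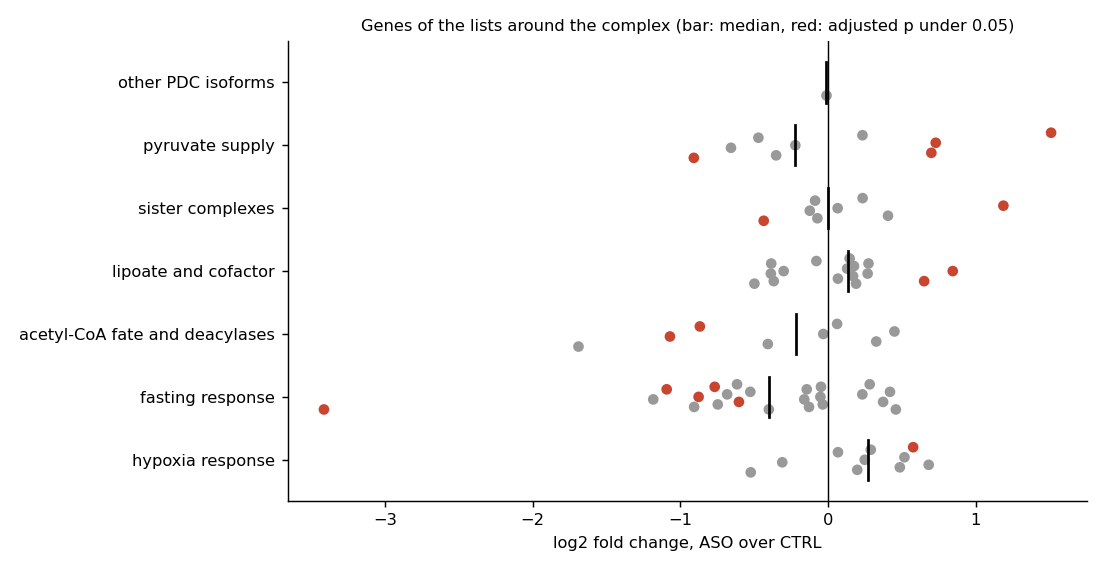
Log2 fold changes, ASO over CTRL (x axis), of the tested genes of the 7 lists, with 1 point per gene (red where the adjusted p is under 0.05, grey where not) and a bar at the median of each list. The fasting response has its median at −0.40 and no red point above 0, and Ppara at −3.41 is the lowest.

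Upstream of the complex, 3 of 9 tested genes of pyruvate supply rose and 1 fell, with a median of −0.22. Gpt2, which interconverts pyruvate and alanine, rose from 263 ± 65.3 to 750 ± 243 CPM (log2 fold change 1.51, SE 0.26, adjusted p = 0.0014 by edgeR). The glycolytic enzyme gene Pkm (0.70, SE 0.20) and the lactate exporter gene Slc16a3 (0.73, SE 0.25) also rose, with edgeR adjusted p = 0.022 and 0.042. Ldha, the muscle lactate dehydrogenase subunit, fell from 6563 ± 1053 to 3497 ± 1530 CPM (−0.91, SE 0.29, adjusted p = 0.033 by edgeR). Of the mitochondrial pyruvate carrier, Mpc2 was at 0.23 (SE 0.17, adjusted p = 0.33 by edgeR), and Mpc1 had at most 7 counts in any library and was not tested. Gpt2 was called in all 20 alternatives other than those added later. The call of Slc16a3 was lost in 11 of them, with total counts, limma-voom, the block, the most distal counted segments (0.38), and without CTRL replicates 1, 3, 4 or 5 or ASO replicates 1, 3 or 5. That of Ldha was lost without CTRL replicates 2, 4 or 5 or ASO replicates 4 or 5, and that of Pkm without CTRL replicates 4 or 5 and on the most distal counted segments (0.58).

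The sister complexes share E3 and the lipoate cofactor, and 1 of 8 tested genes rose and 1 fell, with a median of −0.0034. Dbt, the E2 of the branched-chain complex, fell from 58.4 ± 7.66 to 43.2 ± 4.97 CPM (−0.44, SE 0.14, adjusted p = 0.034 by edgeR), and Dlst, the E2 of the oxoglutarate complex, was at 0.07 (SE 0.15, adjusted p = 0.77 by edgeR). Amt of the glycine cleavage system rose, with between 2 and 9 counts per CTRL library and between 8 and 20 per ASO library (1.19, SE 0.40, edgeR adjusted p = 0.041). Of the genes that make lipoate and supply cofactors, 2 of 16 rose and none fell, with a median of 0.14. These were the acyl carrier protein gene Ndufab1 (0.65, SE 0.21), whose sign turned on the most distal counted segments (−0.45), and the ferredoxin reductase gene Fdxr (0.84, SE 0.27), with adjusted p = 0.037 and 0.034 by edgeR. Lias, which synthesizes the lipoyl group, was at 0.18 (SE 0.14, edgeR adjusted p = 0.38). None of the 4 calls in these lists was stable. That of Dbt was lost in 14 of 20 alternatives, among them upper quartile, DESeq2, the block, libraries thinned to equal depth and the most distal counted segments (−0.14), and remained when CTRL replicate 2 or ASO replicate 3 was left out but not when any other library was. That of Fdxr was lost in 11 of 20, among them total counts, limma-voom, the block and leaving out any library but CTRL replicate 5 or ASO replicates 1 or 2. That of Ndufab1 was lost in 9 of 20, among them total counts, the block and leaving out any of CTRL replicates 2 to 5 or ASO replicates 3 or 5. That of Amt was lost in 11 of the 18 that gave a value, among them total counts, DESeq2, the block and leaving out any of CTRL replicates 1 to 3 or ASO replicates 2, 3 or 5.

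Downstream, 2 of 8 tested genes of acetyl-CoA use and the mitochondrial sirtuins fell and none rose, with a median of −0.22. Crat, which buffers mitochondrial acetyl-CoA as acetylcarnitine, fell from 971 ± 177 to 532 ± 116 CPM (−0.87, SE 0.19, adjusted p = 0.0053 by edgeR), and all 5 ASO libraries lay below all 5 controls. The deacylase gene Sirt5 fell from 16.6 ± 3.43 to 7.88 ± 1.42 CPM (−1.07, SE 0.23, adjusted p = 0.0045 by edgeR), also without overlap. On the most distal counted segments Crat was at −0.39 (SE 0.18) and not called, and it was called in the other 19 alternatives. Sirt5 was called in all 19 that gave a value. It gave none on the most distal counted segments, so its dependence on segment position was not checked in this way. Cs, the citrate synthase that takes up acetyl-CoA, was at 0.45 (SE 0.16, edgeR adjusted p = 0.052), just short of the threshold.

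The fasting response list holds genes that PPAR, FOXO or glucocorticoid signaling is known to induce in muscle, as it does Pdk4. Of 23 tested genes, 5 fell and none rose, and the median was −0.40. Over all genes tested, 17.5% were lower and 11.7% higher, with a median of −0.03, and nothing is read from the count. Ppara, which encodes the fatty acid receptor, fell from 10 to 77 counts per CTRL library to 2 to 11 per ASO library (−3.41, SE 0.61, adjusted p = 0.0018 by edgeR). The glucocorticoid-induced Fkbp5 (−1.09, SE 0.28), the fatty acid transporter gene Cd36 (−0.88, SE 0.27), the ubiquitin ligase gene Trim63 (−0.77, SE 0.22) and the carnitine palmitoyltransferase gene Cpt1b (−0.60, SE 0.21) also fell, with edgeR adjusted p = 0.011, 0.029, 0.019 and 0.043. Ppara was called in all 17 alternatives that gave a value. It gave none on the most distal counted segments, at equal depth or with at least 10 counts required in every library. Its dependence on segment position was therefore not checked in this way. Fkbp5 was called in all but the most distal counted segments (−0.60). The call of Cd36 was lost on those segments (−0.47) and without CTRL replicates 1 or 3 or ASO replicates 1, 2 or 5, and that of Trim63 without CTRL replicate 4 or ASO replicates 1, 3 or 5. The call of Cpt1b was lost in 12 of 20 alternatives, among them RLE size factors, upper quartile scaling, limma-voom and the block, and without CTRL replicates 1 (−0.39), 4 or 5 or ASO replicates 1, 2, 3 or 5. Pdk4 itself, at 0.16, was not past the threshold, nor were Angptl4 (−0.53, SE 0.58) and Ucp3 (0.42, SE 0.28). Of the hypoxia response, 1 of 10 tested genes rose, the prolyl hydroxylase gene Egln1 (0.58, SE 0.20, adjusted p = 0.042 by edgeR), and the median was 0.27. The call of Egln1 was lost in 11 of 20 alternatives, among them total counts, the block, the most distal counted segments (0.36) and leaving out any library but CTRL replicate 1 or ASO replicates 2 or 4. Pdk1 was at −0.12 and Vegfa at 0.07.

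The ranges of the summed markers of other cells overlapped between the groups. The sums, lowest to highest in CPM, were 846 to 13740 in CTRL and 721 to 3758 with the ASO for 7 adipocyte genes, 193 to 1185 and 56.1 to 453 for 6 macrophage genes, 190 to 340 and 38.2 to 256 for 5 fibroblast genes, 162 to 283 and 154 to 349 for 6 endothelial genes, 891 to 1468 and 283 to 1714 for 5 blood genes, and 78.8 to 160 and 37.2 to 552 for 6 Schwann cell genes. For the fibroblast genes the overlap came from ASO replicate 4 alone (256 CPM). The other ASO libraries, at 38.2 to 123.5 CPM, lay below every control, and the medians were 239 CPM in CTRL and 107.5 CPM with the ASO. Of the tested genes of these lists, 1 of 4 in the macrophage list and 1 of 3 in the fibroblast list was lower, and none in the other 4 lists was called. The defining macrophage genes Adgre1 and Cd163, the fibroblast gene Dcn and the blood gene Alas2 are listed at 0 in every library. The slow fiber sum ran from 68.5 to 2001 CPM in CTRL and from 24.6 to 5919 CPM with the ASO (0 of 5 tested genes called), and the fast fiber sum from 12320 to 26360 CPM and from 24790 to 54850 CPM (3 of 4 tested genes higher). Tnnt1 of the slow list and Tnnt3 and Mylpf of the fast list are listed at 0.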

How the data were processed

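GAS RNA from 5 ASO and 5 CTRL mice was sequenced as stranded mRNA libraries on an Illumina system. The authors used fastp for trimming, STAR for alignment to GRCm39 and featureCounts for counting read pairs (Gencode M25, 3′UTR ends of up to 500 bp), and the deposited values are raw counts. Per-sample columns numbering 4 that match no sample were not used. Transcript identifiers were mapped with GENCODE M39, in which 52361 of 52423 were found, and segments were summed per gene. Members and gene lists were chosen with earlier results of these data known. Named genes are the 10 members, up to 8 past the threshold per list, and the 3 most like Pdk4 and Pdpr. Genes were fitted with edgeR 4.0.16 (TMM, quasi-likelihood test, Benjamini-Hochberg threshold 0.05) in R 4.3.3, after its filter on low counts. CPM and ratios were computed with Python. DESeq2 1.42.0 and limma-voom 3.58.1 were alternatives. The procedure was tested on simulated gene counts. These held no positions along genes, so that test cannot address the difference in the distal index. Errors are SDs over 5 mice unless given as SE, and totals of 1606909 to 2632560 counts limit precision for low genes.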

Additional observations from a re-analysis of the deposited data

Results flagged for a closer look

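In groups of 5 libraries, a sample was marked where its gap to the nearest other sample, divided by the range of the group, was over 0.71. Chance marks about 1 in 20 groups, and 3 of the 20 groups of the 10 genes were marked. Pdk4 in CTRL replicate 1 had 2764 CPM, against 771 to 1331 CPM in the other 4 controls (gap over range 0.719). Dld in ASO replicate 3 had 495 CPM, against 253 to 300 CPM in the other 4 (0.806). Dlat in ASO replicate 1 had 109 CPM, against 75.9 to 82.4 CPM in the other 4 (0.802). The cause was not tested for any of them.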

How the results depend on the processing

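Pdk2 and Pdpr kept their direction and stayed past the threshold under all 20 alternatives other than those added later, and no member's log2 fold change moved by more than the spread between replicates under them. Under scaling by total counts, which shifted the median of all log2 fold changes by −0.18, 528 genes were higher and 1821 lower in place of 916 and 1365, with 1 member and 2 list genes higher in place of 2 and 7. Upper quartile scaling gave 1261 higher and 1207 lower. On the most distal counted segments alone, where fewer genes were tested, 388 genes were higher and 604 lower, with 1 member and 2 list genes higher and 5 list genes lower in place of 9. Of the members, only Pdhx and Pdpr have more than 1 counted segment. For the other members this setting changed the scaling and fit, not the counts. Without the filter on low counts, 1 member was higher. The replicate numbers do not pair the mice (correlations of deviations from −0.427 to 0.164, 1 of 5 over 0.1). With the replicate number as a block, 663 genes were higher and 1175 lower, with 1 member and 2 list genes higher. Leaving out 1 library gave 691 to 1021 genes higher and 1126 to 1370 lower, 1 to 3 members higher and 1 lower, and 2 to 8 list genes higher and 4 to 8 lower. With the distal index as a covariate, chosen after seeing the data, edgeR called 0 genes, with 0 members higher and 2 lower and 2 list genes higher and 7 lower at an unadjusted p under 0.05, and Pdha1 (−0.50), Pdhb (−0.24), Dld (−0.85), Pdk4 (−1.59), Pdp1 (−0.91), Ndufab1 (−0.46) and Egln1 (−0.24) changed sign. Ndufab1 was also negative on the most distal segments (−0.45). Of the other fits of single list genes, 98 lost the call and 215 kept it. The cause was not tested. At these totals, the ASO level of Pdpr rests on 10 to 36 counts per library and Pdp1 on 26 to 72.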
